A study of Homo sapiens with 6 samples.

Results

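The YAP-TAZ-TEAD module was followed through 10 genes in a lenvatinib-resistant form of TPC-1, a human papillary thyroid carcinoma cell line. They were the coactivator genes YAP1 and WWTR1 (which encodes TAZ), the DNA-binding factor genes TEAD1, TEAD3 and TEAD4, the inhibitory kinase gene LATS2, and the target genes CCN1, CCN2, ANKRD1 and AMOTL2. The members were taken by exact gene symbol from a table of 22681 genes, and 10 of 10 were present and passed the filter on low counts. The 2 groups were cultures transfected by lipid reagent with a short hairpin RNA against KRT15 (shKRT15, n = 3) and cultures transfected with a non-targeting hairpin (shNC, n = 3). All cultures were of this 1 resistant line and were kept in 10 µM lenvatinib, an inhibitor of several receptor tyrosine kinases, and no drug-free or drug-sensitive cells were analysed here. The study asked which genes KRT15, a type I keratin gene, regulates in resistant cells. The design text calls the cultures biological replicates without saying whether transfections were separate, and p-values therefore speak of the variation among these 6 cultures, which may be partly technical.

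YAP and TAZ are coactivators that have no DNA-binding domain of their own and reach DNA through the TEAD family of transcription factors. In the Hippo pathway the kinases encoded by STK3 and STK4 activate the kinases encoded by LATS1 and LATS2, which phosphorylate YAP and TAZ and keep them out of the nucleus. CCN1 and CCN2 encode secreted matricellular proteins, and with ANKRD1 they are widely used readouts of TEAD-dependent transcription. LATS2 and AMOTL2 are targets that feed back, since their products restrain YAP and TAZ. Much of this regulation acts on phosphorylation and location of the proteins, which RNA counts do not measure.

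The libraries held 39868231 to 41343780 counted reads in shKRT15 and 36286059 to 36808695 in shNC. KRT15, the targeted gene, had 1024, 1044 and 1005 reads in the shKRT15 libraries, against 1040, 1137 and 1284 in shNC. Scaled to library size its level fell by 23.4% (95% confidence interval −33.8 to −11.3%, adjusted p = 0.00465), so the depletion was partial. Of the thyroid follicular markers, PAX8 averaged 410 CPM (counts scaled to the TMM library size) in shKRT15 and 375 CPM in shNC and FOXE1 15.3 CPM in shKRT15 and 14.6 CPM in shNC, whereas NKX2-1 and TSHR had 0 or 1 read in every library. SLC5A5 was not analysed here. The epithelial markers KRT18 and KRT7 were expressed and EPCAM and CDH1 were nearly absent, with 0 to 5 reads a library. In bulk RNA, fewer cells of a type and less RNA per cell cannot be told apart. Expression differed widely between the groups: 6464 of 14356 tested genes, or 45%, were called at a Benjamini-Hochberg adjusted p under 0.05 in edgeR's quasi-likelihood test. Of all tested genes 22.1% were higher and 23% lower. The groups did not overlap in 54% of tested genes.

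Promoter sequences are shown for CCN2 and ANKRD1, long-studied TEAD targets that were lower in shKRT15 cells, and for YAP1, a coactivator gene that was higher. The window was the 250 bases before the RefSeq start site (GRCh38.p14), written 5′ to 3′ on the gene's own strand. Capitals mark the core TEAD motif CATTCC, which reads GGAATG on the other strand. Both strands were searched, in windows that also held the first 50 transcribed bases. CCN2 had 3 copies, ANKRD1 had 2 and YAP1 had 1. AMOTL2 is printed for contrast, as a target gene in whose window these letters were not found.
CCN2 (chr6:131951373-131951622, minus strand): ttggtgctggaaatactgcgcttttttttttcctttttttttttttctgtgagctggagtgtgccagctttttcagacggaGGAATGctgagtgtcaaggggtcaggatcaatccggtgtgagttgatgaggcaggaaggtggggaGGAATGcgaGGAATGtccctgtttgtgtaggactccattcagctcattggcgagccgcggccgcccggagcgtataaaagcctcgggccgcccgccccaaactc
ANKRD1 (chr10:90921088-90921337, minus strand): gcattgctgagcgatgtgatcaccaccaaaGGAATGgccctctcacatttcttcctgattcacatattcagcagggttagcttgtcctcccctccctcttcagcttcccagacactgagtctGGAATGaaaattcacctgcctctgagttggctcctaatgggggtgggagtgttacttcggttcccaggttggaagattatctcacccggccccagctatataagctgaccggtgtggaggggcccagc
YAP1 (chr11:102110197-102110446, plus strand): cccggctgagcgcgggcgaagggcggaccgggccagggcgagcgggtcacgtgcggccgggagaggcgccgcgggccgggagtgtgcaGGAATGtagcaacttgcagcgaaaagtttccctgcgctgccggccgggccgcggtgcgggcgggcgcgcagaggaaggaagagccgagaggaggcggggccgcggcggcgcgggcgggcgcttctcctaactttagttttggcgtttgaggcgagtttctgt
AMOTL2 (chr3:134375418-134375667, minus strand): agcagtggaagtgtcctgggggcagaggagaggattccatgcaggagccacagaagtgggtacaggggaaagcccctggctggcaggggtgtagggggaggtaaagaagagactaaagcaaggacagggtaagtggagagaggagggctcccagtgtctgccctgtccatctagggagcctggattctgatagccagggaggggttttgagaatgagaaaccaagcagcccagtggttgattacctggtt

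In CCN2 the motifs began 169, 104 and 95 bases before the start site, and in ANKRD1 they began 220 and 128 bases before it. The single YAP1 match began 162 bases before the start, and LATS2 had 1 match, 10 bases into the transcript. WWTR1 and TEAD3 had no match in their windows, and the promoters of TEAD1, TEAD4 and CCN1 were not analysed here. The WWTR1 window (chr3:149703224-149703523, minus strand) lay inside the gene's span, whose 5′ end is at 149724788. The absence of a match there describes an internal start site, and the sequence at the 5′ end of the span was not searched. Among 27305 RefSeq promoters of the same length, 14% held the motif at least once, 1.37% at least 2 times and 0.146% at least 3 times. AP-1 motifs can lie beside TEAD motifs, and TGANTCA, a loose form of the AP-1 motif in which N is any base, was also searched. It occurred once among the 7 member windows, in ANKRD1 at 195 bases before the start, and in 7.76% of all promoters. The ANKRD1 match reads TGATTCA and so lacks the C or G in the middle of the AP-1 consensus. The share of all promoters likewise counts such looser matches. A match describes the letters in a window and is not evidence of binding.

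Both coactivator genes rose in shKRT15 cells, WWTR1 more than YAP1. WWTR1 (chr3:149517235-149724788, minus strand) stood at 282.8, 285.1 and 277.1 CPM in the shKRT15 cultures, against 163.7, 157.9 and 140.3 CPM in shNC. The groups were far apart relative to their spread, and WWTR1 rose 1.83-fold (log2 fold change 0.87 ± 0.07, SE; adjusted p = 3.73e-08). YAP1 (chr11:102110447-102233424, plus strand) stood at 208.4, 209.6 and 197.4 CPM in shKRT15, against 182.3, 174.7 and 147.5 CPM in shNC. Its groups did not overlap, but shNC replicate 3 lay well below the other 2 shNC cultures. YAP1 rose 1.22-fold (log2 fold change 0.29 ± 0.08; adjusted p = 0.00721), and without shNC replicate 3 its log2 fold change was 0.20 (adjusted p = 0.0174). WWTR1-AS1, a non-coding gene within the WWTR1 span whose reads may not be separable by strand, had 30, 23 and 10 reads in shKRT15 and 10, 9 and 25 reads in shNC, which is small beside the summed WWTR1 reads of 35026 in shKRT15 and 16525 in shNC.

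**Figure D1:**
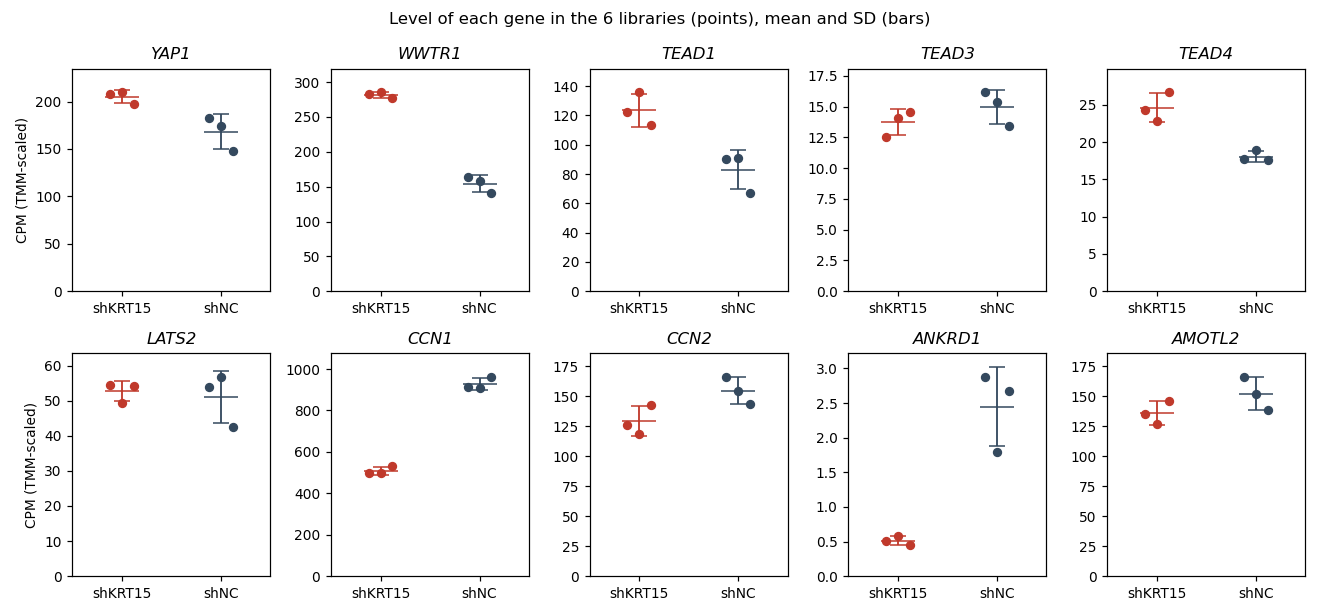
Level of each of the 10 genes in CPM (y axis, from 0, own scale per panel), with 3 shKRT15 cultures on the left and 3 shNC cultures on the right; points are cultures and bars the mean and SD. WWTR1, YAP1, TEAD1 and TEAD4 lie higher in shKRT15, CCN1, CCN2 and ANKRD1 lie lower, and TEAD3, LATS2 and AMOTL2 overlap.

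The balance between the coactivators was also separate in the 2 groups. Within a library there were 1.36, 1.36 and 1.40 WWTR1 reads for each YAP1 read in shKRT15, against 0.898, 0.904 and 0.951 in shNC. This ratio does not depend on how libraries are scaled, and it was 1.5-fold higher in shKRT15 with no overlap. The exact permutation p, two-sided, was 0.1, below which 3 against 3 cultures cannot go, or 0.14 after Benjamini-Hochberg adjustment over the 7 ratios examined. Per kilobase of exon, which allows a comparison between genes, WWTR1 was at 52.5 ± 0.769 CPM per kb in shKRT15 and 28.7 ± 2.27 in shNC, and YAP1 at 36.4 ± 1.19 in shKRT15 and 29.9 ± 3.25 in shNC (SD, n = 3 each). The 2 genes were thus level with each other in shNC cells within the spread between cultures, while WWTR1 was the more abundant in every shKRT15 culture. WWTR1 made up 58.7, 58.8 and 59.6% of the summed YAP1 and WWTR1 level in shKRT15, against 48.5, 48.7 and 49.9% in shNC. These levels rest on exon lengths of GENCODE release 29, since which transcripts were counted is not given in the sources used here.

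**Figure D2:**
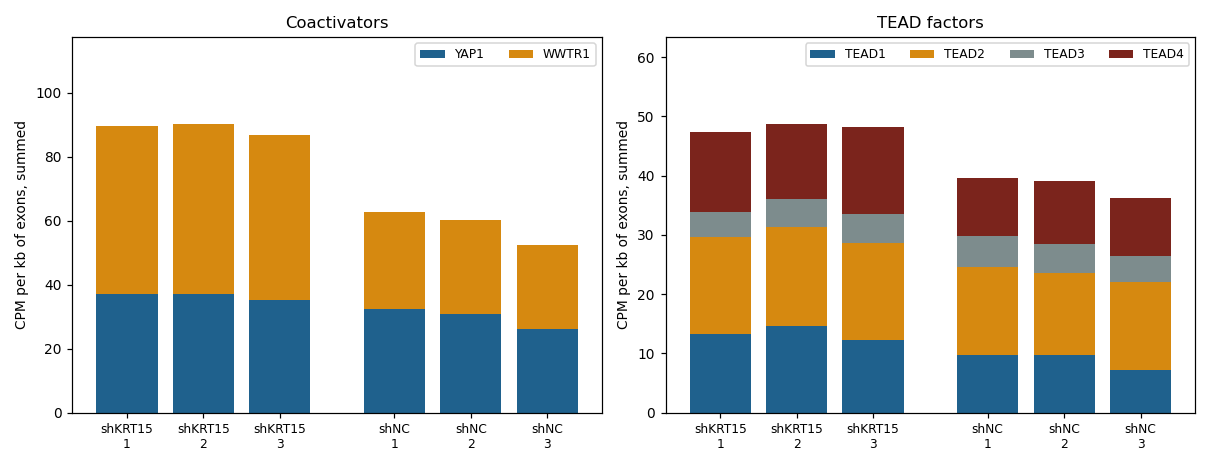
Level per kilobase of exon (CPM per kb, stacked from 0) of the coactivator genes (left) and the 4 TEAD genes (right) in each culture, shKRT15 cultures left of shNC cultures. The summed YAP1 and WWTR1 level was 86.7 to 90.3 in shKRT15 and 52.3 to 62.9 in shNC, and the summed TEAD level 47.2 to 48.8 in shKRT15 and 36.2 to 39.6 in shNC.

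Of the 3 TEAD members, TEAD1 and TEAD4 rose and TEAD3 did not pass the test. TEAD1, a broadly expressed paralog (chr11:12674421-12944737, plus strand), stood at 122, 135.7 and 113.3 CPM in shKRT15, against 90.43, 90.77 and 67.38 CPM in shNC. Its groups did not overlap, and shNC replicate 3 was again the lowest. TEAD1 rose 1.49-fold (log2 fold change 0.58 ± 0.11; adjusted p = 0.000316). TEAD4 (chr12:2959397-3040676, plus strand) stood at 24.28, 22.87 and 26.66 CPM in shKRT15, against 17.67, 18.89 and 17.61 CPM in shNC. The 3 shNC cultures lay close together and below every shKRT15 culture, and TEAD4 rose 1.36-fold (log2 fold change 0.45 ± 0.10; adjusted p = 0.00172). TEAD3 (chr6:35473597-35497079, minus strand) stood at 12.55, 14.11 and 14.52 CPM in shKRT15, against 16.15, 15.35 and 13.4 CPM in shNC. Its groups overlapped, and its log2 fold change was −0.13 ± 0.12 (95% confidence interval −0.37 to 0.12; adjusted p = 0.413). Over all settings it ran from −0.24 to −0.06 and was not called.

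The TEAD3 and TEAD1 values separated further as a ratio within libraries. There were 0.103, 0.104 and 0.128 TEAD3 reads for each TEAD1 read in shKRT15, against 0.179, 0.169 and 0.199 in shNC, a ratio 0.611 times as high with no overlap between the groups (two-sided exact permutation p = 0.1, the smallest possible; adjusted p = 0.14). For TEAD4 over TEAD1 the groups overlapped, at 0.199, 0.169 and 0.235 reads per read in shKRT15 and 0.195, 0.208 and 0.261 in shNC (exact permutation p = 0.5). The remaining paralog, TEAD2, was at 44.21, 45.18 and 44.29 CPM in shKRT15, against 39.76, 36.88 and 39.81 CPM in shNC. Its groups did not overlap, but it did not pass the test (log2 fold change 0.20 ± 0.08; adjusted p = 0.0606). It was called without shNC replicate 3 (adjusted p = 0.0436), with total-count scaling (0.0181) and with a minimum of 1 CPM (0.0489), and stood at 0.11 after GC and length correction (adjusted p = 0.232). Per kilobase, TEAD2 was the most abundant TEAD gene in every culture, with 34.5 ± 0.35% of the summed TEAD level in shKRT15 and 37.8 ± 2.9% in shNC. TEAD4 held 28.4 ± 2.3% in shKRT15 and 26.1 ± 1.3% in shNC, TEAD1 held 27.8 ± 2.3% in shKRT15 and 23.2 ± 2.8% in shNC, and TEAD3 held 9.37 ± 0.58% in shKRT15 and 12.8 ± 0.62% in shNC (SD, n = 3 each). TEAD1 and TEAD4 did not differ from each other beyond their spread in either group. The VGLL proteins compete with YAP and TAZ for TEAD factors. VGLL4 fell, at 49.99, 47.77 and 47.09 CPM in shKRT15 and 59.81, 60.38 and 53.58 CPM in shNC (log2 fold change −0.26 ± 0.08; adjusted p = 0.0155), a call lost under total-count scaling (0.0575) and when shNC replicate 1, shNC replicate 2 or shKRT15 replicate 3 was left out (0.0519 to 0.0884). VGLL3 had 1 read over the shKRT15 libraries and 16 over the shNC libraries and was not tested.

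**Figure D3:**
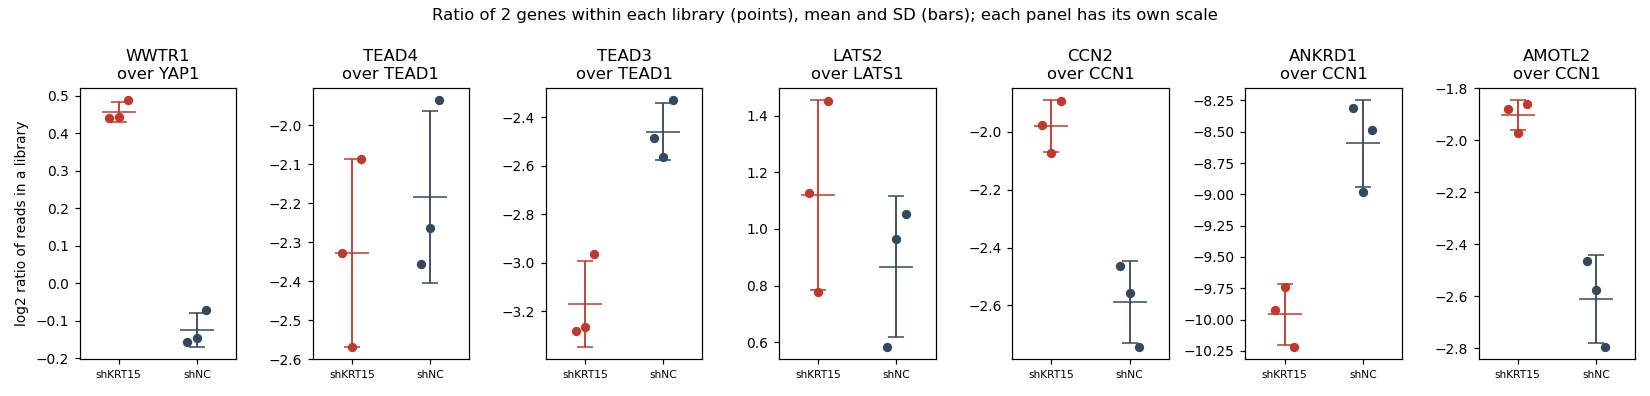
Log2 ratio of the reads of 2 genes within each library (y axis, own scale per panel), with 3 shKRT15 cultures on the left and 3 shNC cultures on the right; bars are the mean and SD. The groups separate for WWTR1 over YAP1, TEAD3 over TEAD1, and CCN2, ANKRD1 and AMOTL2 over CCN1, and overlap for TEAD4 over TEAD1 and LATS2 over LATS1.

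The inhibitory kinase gene LATS2 showed no detectable difference. LATS2 (chr13:20973036-21061586, minus strand) stood at 54.54, 49.35 and 54.11 CPM in shKRT15, against 54.01, 56.64 and 42.55 CPM in shNC. The groups overlapped, and the log2 fold change of 0.04 ± 0.10 had a 95% confidence interval from −0.17 to 0.26 (adjusted p = 0.752). Its sign turned without shNC replicate 3 (−0.07) and after each library's trends with GC content and transcript length were taken out (−0.09), and neither value was called. The ratio of LATS2 to LATS1 overlapped between the groups (exact permutation p = 0.4). Across the 8 listed genes of the kinase cassette, 2 fell and 6 did not pass, a median log2 fold change of −0.02 against 0.00 for all tested genes, so 25% were called against 45% of all genes. The 2 that fell were MOB1B, a LATS cofactor (log2 fold change −0.63 ± 0.14; adjusted p = 0.00268), and STK3, the kinase MST2 (−0.29 ± 0.08; adjusted p = 0.00671). After the same GC and length correction, MOB1B remained lower at −0.30 (adjusted p = 0.00613), STK3 stood at 0.01 (adjusted p = 0.892), and MOB1A, at −0.02 in the main test, was called higher at 0.25 (adjusted p = 0.000483). STK3 also lost its call without shKRT15 replicate 1 (adjusted p = 0.0682). LATS1 stood at −0.22 ± 0.18 (adjusted p = 0.343) and was called lower without shNC replicate 3 (−0.41, adjusted p = 0.0169). It stood nearer to 0, and was not called, when shNC replicate 1 (−0.008) or shKRT15 replicate 3 (−0.085) was left out and after GC and length correction (−0.049). The others stood at 0.06 for NF2, 0.02 for SAV1 and −0.02 for STK4.

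CCN1, the most abundant member, fell. CCN1 (chr1:85580761-85583950, plus strand) stood at 497, 496.8 and 530.8 CPM in the shKRT15 cultures, against 913.6, 907.3 and 960.2 CPM in shNC. The cultures of each group lay close together and the groups were far apart. CCN1 fell by 45.2% (95% confidence interval −50.3 to −39.5%; log2 fold change −0.87 ± 0.07; adjusted p = 1.63e-08). It took 0.051 to 0.0529% of all counted reads in shKRT15 and 0.0886 to 0.0938% in shNC, and ranked 248 among genes by summed reads in shKRT15 and 105 in shNC. Per kilobase it was the most abundant of the 10 genes in both groups, at 222 ± 8.54 CPM per kb in shKRT15 and 405 ± 12.6 in shNC (SD, n = 3 each). In shKRT15 cells CCN2 (55.2 ± 5.4) and WWTR1 (52.5 ± 0.769) came next and overlapped, followed by YAP1, AMOTL2 (28.4 ± 2.04), TEAD4 (13.6 ± 1.06) and TEAD1 (13.3 ± 1.22), of which the last 2 overlapped, then LATS2 (9.56 ± 0.523), TEAD3 (4.51 ± 0.34) and ANKRD1 (0.259 ± 0.0346). In shNC cells CCN2 (66 ± 4.75) was followed by AMOTL2 (31.8 ± 2.86), YAP1 and WWTR1, which overlapped with each other, then by TEAD4 (10 ± 0.4), LATS2 (9.27 ± 1.36) and TEAD1 (8.94 ± 1.45), which overlapped as well, and by TEAD3 (4.91 ± 0.464) and ANKRD1 (1.24 ± 0.29).

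CCN2 was lower by a smaller margin and its call was not stable. CCN2 (chr6:131948176-131951372, minus strand) stood at 126.3, 118.1 and 142.9 CPM in shKRT15, against 165.6, 154.2 and 143.3 CPM in shNC. The highest shKRT15 culture lay just under the lowest shNC culture. CCN2 fell by 16.4% (95% confidence interval −25.8 to −5.72%; log2 fold change −0.26 ± 0.08; adjusted p = 0.0165). The call was lost without shKRT15 replicate 1 (adjusted p = 0.0837) or 2 (0.0775), without shNC replicate 1 (0.0815) or 2 (0.0554) and with total-count scaling (0.0512), and the log2 fold change stayed between −0.34 and −0.19 over all settings. Within a library there were 0.254, 0.238 and 0.269 CCN2 reads for each CCN1 read in shKRT15, against 0.181, 0.170 and 0.149 in shNC. That ratio was 1.52-fold higher in shKRT15 with no overlap (exact permutation p = 0.1, the smallest possible; adjusted p = 0.14).

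ANKRD1, which encodes an ankyrin repeat protein of the nucleus and sarcomere, had the largest fold change and the lowest level of the 10 genes. ANKRD1 (chr10:90912096-90921087, minus strand) had 21, 25 and 18 reads in shKRT15, or 0.5129, 0.5822 and 0.4451 CPM, against 104, 64 and 95 reads, or 2.872, 1.796 and 2.681 CPM, in shNC. Every shKRT15 culture was below every shNC culture, and shNC replicate 2 was the nearest. ANKRD1 fell by 78.9% (95% confidence interval −87.3 to −64.9%; log2 fold change −2.25 ± 0.35; adjusted p = 5.17e-05), with a range from −2.43 to −2.07 over all settings. Its ratio to CCN1 in shKRT15 was 0.388 times that in shNC, with no overlap (exact permutation p = 0.1; adjusted p = 0.14).

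AMOTL2, an angiomotin family gene, did not pass the test. AMOTL2 (chr3:134355345-134375417, minus strand) stood at 134.8, 126.7 and 146.1 CPM in shKRT15, against 165.7, 152.2 and 138.3 CPM in shNC. The groups overlapped through shNC replicate 3 and shKRT15 replicate 3, and the log2 fold change was −0.16 ± 0.08 (95% confidence interval −0.33 to 0.01; adjusted p = 0.112). It was called lower without shNC replicate 3 (−0.23, adjusted p = 0.014) and after GC and length correction (−0.30, adjusted p = 0.000327), and under total-count scaling (−0.10, adjusted p = 0.298) and when shNC replicate 1 was left out (−0.09, adjusted p = 0.426) it stood nearer to 0. Relative to CCN1 it was 1.63-fold higher in shKRT15, with no overlap (exact permutation p = 0.1; adjusted p = 0.14).

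In all, 4 members were called higher and 3 lower, and 3 were not called. The same call was made higher in 22.1%, lower in 23% and in either direction in 45% of all tested genes, so with 10 members these counts alone do not set the module apart. The groups did not overlap in the same 7 genes, 4 higher and 3 lower, against 26.9% of all tested genes higher and 27.1% lower without overlap. The 4 rises were all among the factors and the 3 falls all among the targets. This split holds for these members, which were chosen with earlier results of these data known. Of 17 other genes of a YAP-TAZ target signature, described below, 7 rose and 5 fell. Levels of YAP1, WWTR1, TEAD1, TEAD4 and LATS2 were lowest of the 6 cultures in shNC replicate 3. Without that culture the counts of members were 4 higher and 4 lower. The fibroblast marker list, set beside the CCN genes because stromal cells express them, summed to 7.87 to 8.57 CPM in shKRT15 and 18.1 to 23.4 CPM in shNC. Of its 3 tested markers of 7, COL1A1 and LUM were lower and PDGFRB was higher, and COL1A2 had 0 reads in every shKRT15 library and 1 to 7 in the shNC libraries. COL1A1 averaged 3.57 CPM in shKRT15 and 10.2 CPM in shNC, and DCN had at most 4 reads in any library. The leukocyte list summed to 105 to 117 CPM in shKRT15 and 119 to 121 CPM in shNC, nearly all of it LAPTM5. CSF1R averaged 0.862 CPM in shKRT15 and 3.54 CPM in shNC, and PTPRC had 0 reads in shKRT15 libraries and 5 to 21 in shNC libraries. The epithelial list, led by KRT18, summed to 248 to 259 CPM in shKRT15 and 147 to 161 CPM in shNC. The endothelial list summed to at most 1.78 CPM in shKRT15 and 1.35 CPM in shNC. The part of these markers in the members' differences was not tested.

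Genes listed as cytoplasmic restraints, whose products bind YAP, TAZ or the LATS kinases outside the nucleus, moved in both directions. Of 16 tested, 7 rose, 2 fell and 7 did not pass, so 56.2% were called against 45% of all genes. The median log2 fold change was 0.14 against 0.00. The list counts LIMD1 and AJUBA, whose products inhibit LATS, so these figures do not describe restraints alone. LIMD1, a LIM domain protein that binds LATS kinases and is known to inhibit them rather than to restrain YAP, rose 2.04-fold (60.11, 54.99 and 65.81 CPM in shKRT15, against 30.57, 28.04 and 29.99 CPM in shNC; adjusted p = 7.79e-08). Of the other angiomotin genes, AMOT rose 1.94-fold (adjusted p = 3.71e-05) and AMOTL1 1.73-fold (adjusted p = 1.32e-05). YWHAH, a phosphoserine-binding adaptor that retains YAP in the cytoplasm, rose 1.46-fold (adjusted p = 3.95e-06), whereas its paralog YWHAG fell (log2 fold change −0.32 ± 0.07; adjusted p = 0.00127). The phosphatase gene PTPN14 rose 1.58-fold (adjusted p = 0.0189), but shNC values ran from 105.8 to 180.5 CPM, and the call was lost without shKRT15 replicate 3 (adjusted p = 0.05). AJUBA, a LIM protein that likewise inhibits LATS, fell (−0.20 ± 0.07; adjusted p = 0.0243), and lost its call under total-count scaling (0.0782) and when shKRT15 replicate 1 or 2 or shNC replicate 1 or 2 was left out (0.0732 to 0.0917), but stood at −0.33 after GC and length correction (adjusted p = 1.06e-05). The count of rises was 4 without shKRT15 replicate 3.

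Of 28 tested upstream regulators of the 29 listed, 4 rose, 5 fell and 19 did not pass, so 32.1% were called against 45% of all genes. FRMD6, a membrane scaffold of the pathway, fell (103.1, 92.69 and 92.09 CPM in shKRT15, against 241.5, 240.5 and 194.9 CPM in shNC; log2 fold change −1.23 ± 0.09; adjusted p = 5.79e-09). The giant cadherin gene FAT1 fell (−0.84 ± 0.15; adjusted p = 0.000604), as did FJX1 (−0.73 ± 0.09; adjusted p = 2.12e-06) and the kinase gene MAP4K5 (−0.80 ± 0.10; adjusted p = 7.7e-06), which stood at −0.46 after GC and length correction (adjusted p = 3.76e-05). FAT4, a relative of FAT1, rose (0.67 ± 0.17; adjusted p = 0.00385). The number of rises in this list was 2 without shKRT15 replicate 3 and 1 without shNC replicate 2. The number of falls was 8 without shNC replicate 3 and 10 after GC and length correction.

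**Figure D4:**
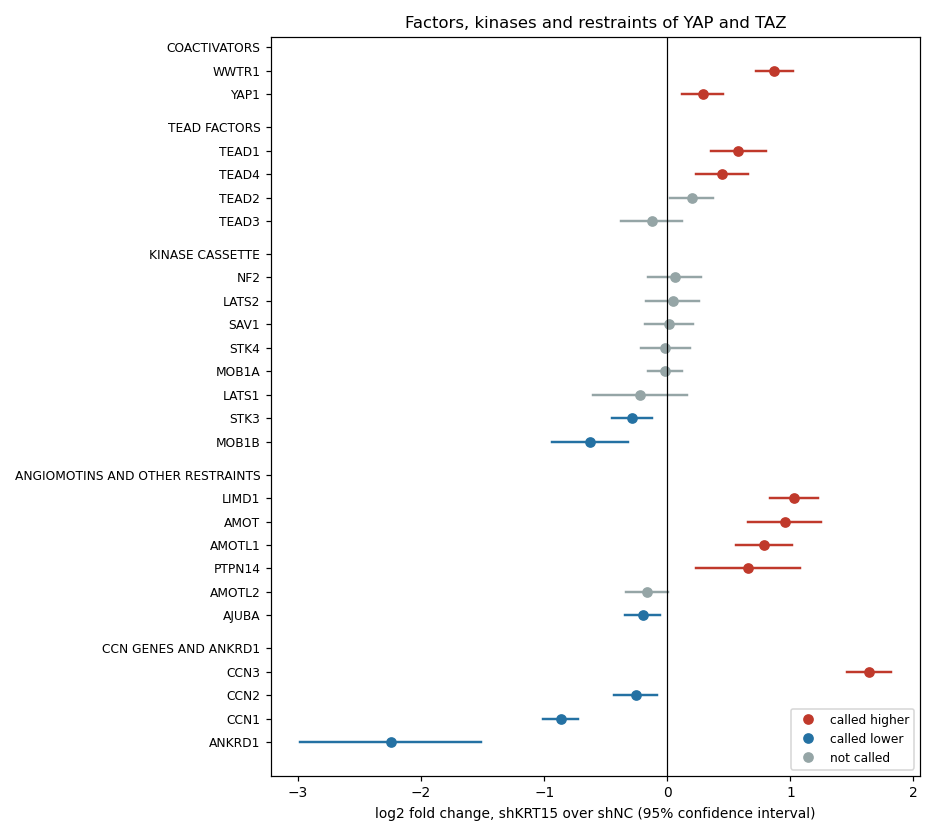
Log2 fold change, shKRT15 over shNC, with its 95% confidence interval (x axis). Groups are the coactivators, TEAD factors, kinase cassette, genes listed as restraints (LIMD1 and AJUBA among them), and CCN genes with ANKRD1. Red genes were called higher, blue lower and grey not called. The coactivators lie right of 0, CCN2, CCN1 and ANKRD1 lie left of it, and 6 of the 8 kinase cassette genes are grey.

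Beyond the 4 target members, listed YAP-TAZ targets moved both ways. The first list held 22 genes after a published pan-cancer target signature, among them 5 members. All were tested, and 7 rose, 8 fell and 7 did not pass, so 68.2% were called against 45% of all genes, with a median log2 fold change of −0.01 against 0.00. Of the 17 that were not members, 7 rose and 5 fell. NT5E, a surface nucleotidase, fell (286.8, 298.4 and 281.8 CPM in shKRT15, against 635, 618.2 and 586 CPM in shNC; log2 fold change −1.09 ± 0.07; adjusted p = 1.16e-09). F3, which encodes tissue factor, fell to 5.422, 5.659 and 6.281 CPM in shKRT15, against 18.91, 22.4 and 18.14 CPM in shNC (−1.78 ± 0.13; adjusted p = 6.69e-09). FJX1 (−0.73 ± 0.09), GADD45A (−0.57 ± 0.09) and CCDC80 (−0.46 ± 0.08) fell as well. FJX1 is also counted among the upstream regulators, LATS2 in the kinase cassette, and AMOTL2 and PTPN14 among the restraints. The counts of these lists are therefore not independent. In the other direction, IGFBP3, which binds insulin-like growth factors, rose 2.23-fold (230.2, 227 and 258.6 CPM in shKRT15, against 102.4, 111.2 and 106.8 CPM in shNC; adjusted p = 1.48e-09). The receptor kinase gene AXL rose 1.63-fold, the transcription factor gene FOXF2 1.47-fold and the membrane repair gene MYOF 1.33-fold. The list thus held changes in both directions. The groups did not overlap in each gene named, but these genes were picked by p-value or after their values were seen. Of all tested genes, 54% did not overlap either.

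**Figure D5:**
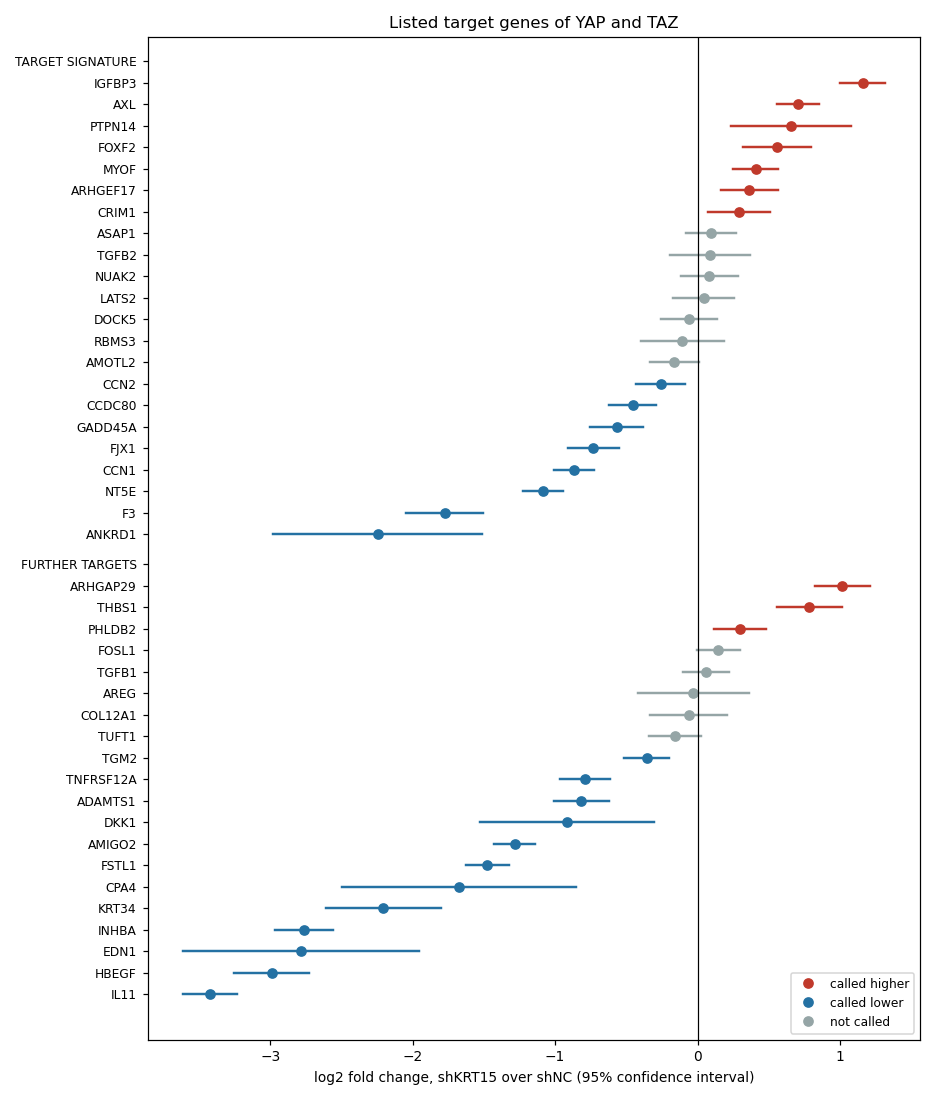
Log2 fold change, shKRT15 over shNC, with its 95% confidence interval (x axis) for the tested genes of both target lists except 1 of the further targets, each sorted by fold change; red genes were called higher, blue lower and grey not called. The signature runs from IGFBP3 at 1.16 to ANKRD1 at −2.25, and the further targets from ARHGAP29 at 1.02 to IL11 at −3.42.

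A list of further targets, many of them secreted factors, leaned lower. Of 21 tested genes of 22, 13 fell, 3 rose and 5 did not pass, a median log2 fold change of −0.82 against 0.00 for all tested genes, with 76.2% called against 45% of all genes. The largest falls by p-value were IL11, a cytokine of the IL-6 family (12.5, 13.62 and 13.7 CPM in shKRT15, against 131.7, 144.8 and 150.6 CPM in shNC), the activin subunit gene INHBA (−2.76 ± 0.10), the EGF receptor ligand gene HBEGF (−2.99 ± 0.13) and the follistatin-like gene FSTL1 (−1.48 ± 0.07). The list was written with earlier results of these data known, among them that IL11 and HBEGF were lower. Its lean to lower values is therefore not independent evidence. The 3 that rose were ARHGAP29, a GTPase-activating protein gene (1.02 ± 0.09; adjusted p = 1.07e-07), the matrix gene THBS1 (0.79 ± 0.11; adjusted p = 2.1e-05) and PHLDB2 (0.30 ± 0.09; adjusted p = 0.0102).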

How the data were processed

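RNA from 6 cultures was sequenced on an Illumina platform after mRNA purification, per the labels' protocols. The authors deposited 1 table of gene-level counts that were not normalized: all values are whole numbers and the library totals differ. The build was GRCh38, per the submitters' processing notes, whereas the aligner, counting tool, annotation and use of strand are not given in the sources.

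All 6 libraries were fitted together with edgeR 4.0.16 (R 4.3.3) by the robust quasi-likelihood test, with TMM scaling and group as the only term. The filter filterByExpr (minimum count 10, minimum total 15) kept 14356 genes. P-values were Benjamini-Hochberg adjusted over all of them, and a gene was called under 0.05. CPM are TMM-scaled. The SE comes from the quasi-likelihood F statistic.

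No 2 libraries agreed within sampling noise: chi-square per degree of freedom was 6.05 to 29 within groups. Exon lengths and GC content came from GENCODE release 29, and gene spans and promoters from RefSeq (GRCh38.p14), matched by Entrez ID, with promoters for 7 of 10 members.

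The members and lists were chosen with earlier results of these data known. Named genes were KRT15, the members, the kinase cassette, the 4 smallest p-values of each list and genes against a list's majority. Of the further targets, 1 gene is counted but not reported singly here. AXL, FOXF2, MYOF, GADD45A, CCDC80, PTPN14, AJUBA, YWHAG, NUAK2 and TGFB2 were chosen after their values were seen. Alternatives were RLE size factors, upper-quartile and total-count scaling, DESeq2 1.42.0, limma-voom (limma 3.58.1), other filters, a replicate block, removal of GC and length trends, and leaving out each library.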

Additional observations from a re-analysis of the deposited data

How the results depend on the processing

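Across 15 alternatives, 141 of 150 values of the members kept their direction and their side of the threshold, 5 lost and 2 gained the call, and 2 turned in sign. The counts of genes called stayed within 1.5 times the main counts, at 2547 to 3295 higher and 2647 to 3452 lower with a library left out. The members called were 4 higher under every alternative, and 2 to 4 lower with a library left out. The target signature gave 5 to 7 higher and 7 to 9 lower in the same refits. Of all calls, 58% were higher with total-count scaling against 49% in the main test, with the median of all genes at 0.06 against 0.00.

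The values that turned in sign were those of STK3, called lower in the main test, and of LATS2, NF2, STK4, MOB1A and SAV1, which were not called in it. After GC and length correction LATS2 stood at −0.088, STK3 at 0.012, NF2 at −0.117, STK4 at 0.038 and MOB1A at 0.253. With total-count scaling STK4 stood at 0.044 and MOB1A at 0.039. With a library left out the values ran from −0.073 to 0.124 for LATS2, −0.068 to 0.165 for NF2, −0.112 to 0.048 for STK4 and −0.049 to 0.12 for SAV1. The cause was not tested.

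Same-numbered cultures did not deviate together (correlations of 0.0188, −0.00742 and 0.0462), so the numbers are not known to pair them. With the replicate block 3305 genes were called higher and 3428 lower, and the members called stayed at 4 and 3. PTPN14 was not called in that fit (0.68, adjusted p = 0.166). ANKRD1 had the fewest reads of the members, at 18 to 104 a library, and the largest SE (0.35).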

Other observations

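CCN3, a relative of CCN1 and CCN2 whose protein often opposes theirs, went the other way: it stood at 97.77, 93.51 and 102.2 CPM in shKRT15, against 33.38, 32.28 and 28.73 CPM in shNC, a 3.11-fold rise (adjusted p = 1.03e-10). The groups were far apart, and the CCN genes CCN4, CCN5 and CCN6 had at most 13 reads over the libraries of either group.

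The deposited table places 145 genes in the Hippo signaling pathway, a broader set with WNT, BMP and TGF-beta genes. Of 129 tested, 30 rose, 30 fell and 69 did not pass, so 46.5% were called, close to the 45% of all genes, with a median log2 fold change of 0.02. Among the smallest p-values were those of the ligand genes WNT5A (−1.59 ± 0.08) and BMP6 (−1.87 ± 0.10) and of BIRC5, a mitotic survival gene, which rose 2.73-fold.

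Among the 16 promoters matched for the target signature, 7 held the TEAD motif, and 3 held it at least 2 times (CCN2, ANKRD1 and NUAK2). Of 17 matched for the further targets, 5 held it. Of all promoters 14% held it at least once and 1.37% at least 2 times. CCN2 and ANKRD1 fell, whereas NUAK2 did not pass the test (log2 fold change 0.08 ± 0.09, adjusted p = 0.503). Of the signature genes with 1 copy, FOXF2 and PTPN14 were called higher. LATS2 (adjusted p = 0.752) and TGFB2 (log2 fold change 0.09 ± 0.13, adjusted p = 0.637) did not pass the test. Signature genes without a copy went both ways, as F3 and NT5E fell and IGFBP3 and AXL rose. A link between the motif and the direction of change was not tested.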
